A study of Mus musculus with 5 samples.

Results

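Of the nuclear receptor genes of the mouse, 9 were followed here in CD8 T cells of a shared antigen specificity: the ROR receptor gene Rora, the NR4A genes Nr4a1, Nr4a2 and Nr4a3, the glucocorticoid receptor gene Nr3c1, the vitamin D receptor gene Vdr, the retinoid receptor genes Rara and Rxra, and Nr1d2, encoding the REV-ERB beta receptor. Members were taken as all probe sets that the array annotation pairs with exactly 1 of these symbols, which gave 33 of 34945 probe sets with 1 symbol, or 9 of 18193 genes. The first group was G9C8 clone, a CD8 cytotoxic T cell clone grown in culture, with 3 arrays from 3 frozen vials. The second was NOD.G9C8 tg, cultured spleen cells of transgenic mice on the NOD/LtJ background aged 4 to 8 weeks, with 2 arrays from 2 mice. Both groups received insulin B peptide at 10 µg/ml for 3 days and IL2 at 5 IU/ml for the next 2 days, and no unstimulated cells are among the samples. The clone is a single line, the labels name no strain for it, no promoter for the transgene and no sort of the spleen cells, and p-values cover only the spread between vials and between mice.

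Nuclear receptors are transcription factors, many of which are switched by a small lipid-soluble ligand. ROR and REV-ERB receptors bind the same DNA element with opposite effects, activation and repression, and through it run a loop of the circadian clock. NR4A receptors act without a known natural ligand and are induced rapidly by T cell receptor signalling, whereas the glucocorticoid receptor rests in the cytosol on HSP90 chaperones until it binds hormone. The vitamin D and retinoic acid receptors bind DNA as pairs with an RXR receptor.

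Signals are given on the linear scale of the arrays, each scaled to the same trimmed mean. Differences are clone minus transgenic on the log2(signal + 20) scale with a 95% confidence interval, and a gene was called at a Benjamini-Hochberg adjusted p under 0.05 in limma over all 12446 genes tested. CD8 T cell genes were bright in both groups, with summed signals over 7 genes of 64387 to 74782 on clone and 79332 to 87478 on transgenic arrays, and Cd4 stayed dim, at 32.1 to 50.6. Of the 7 CD8 T cell genes 3 were called lower in clone, Cd8a (-0.68), Cd8b1 (-0.65) and Cd3d (-0.49), and 0 higher. Cd8a was not called when its probe sets were averaged. Myeloid markers were lower in clone for 7 of 10 tested and higher for 0, with summed signals over 15 genes of 2763 to 3292 on clone and 7716 and 11364 on transgenic arrays. Dendritic cell markers were lower for 5 of 9 and higher for 1, and NK cell markers lower for 3 of 3. Of 5 B cell markers tested 1 was lower, Cd79b (-3.92), 1 was higher, Ebf1 (2.44), and 3 were not called. The part of such cells in the results below was not tested. Some of these marker calls come from genes that passed the filter on dim probe sets, at 88.2, through 1 group only. Clone means lay below that level for the NK cell markers Eomes (72.8), Fcgr3 (13.5) and Cd244a (14.6). They also did for Tyrobp (23.0), Cd14 (40.4), H2-Aa (12.2), H2-Ab1 (21.1) and Cd79b (26.7). The transgenic mean did for Ebf1 (19.4). Such calls are not separate support. Of all genes, 22.0% were called higher in clone and 21.7% lower, 43.8% in all, and without the first transgenic array the lower genes numbered 1697 in place of 2706.

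Of the 9 receptor genes, 7 passed the filter on dim probe sets, at a mean signal of 88.2. Rora, Nr3c1, Nr4a2 and Nr1d2 were higher in clone, 0 were lower, and Nr4a1, Rara and Rxra were not called. Nr4a3 and Vdr lay below the filter and were not tested. The 4 called genes had every clone array above both transgenic arrays, which held for 31.9% of all genes tested, while groups did not overlap in either direction in 64.5%.

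**Figure D1:**
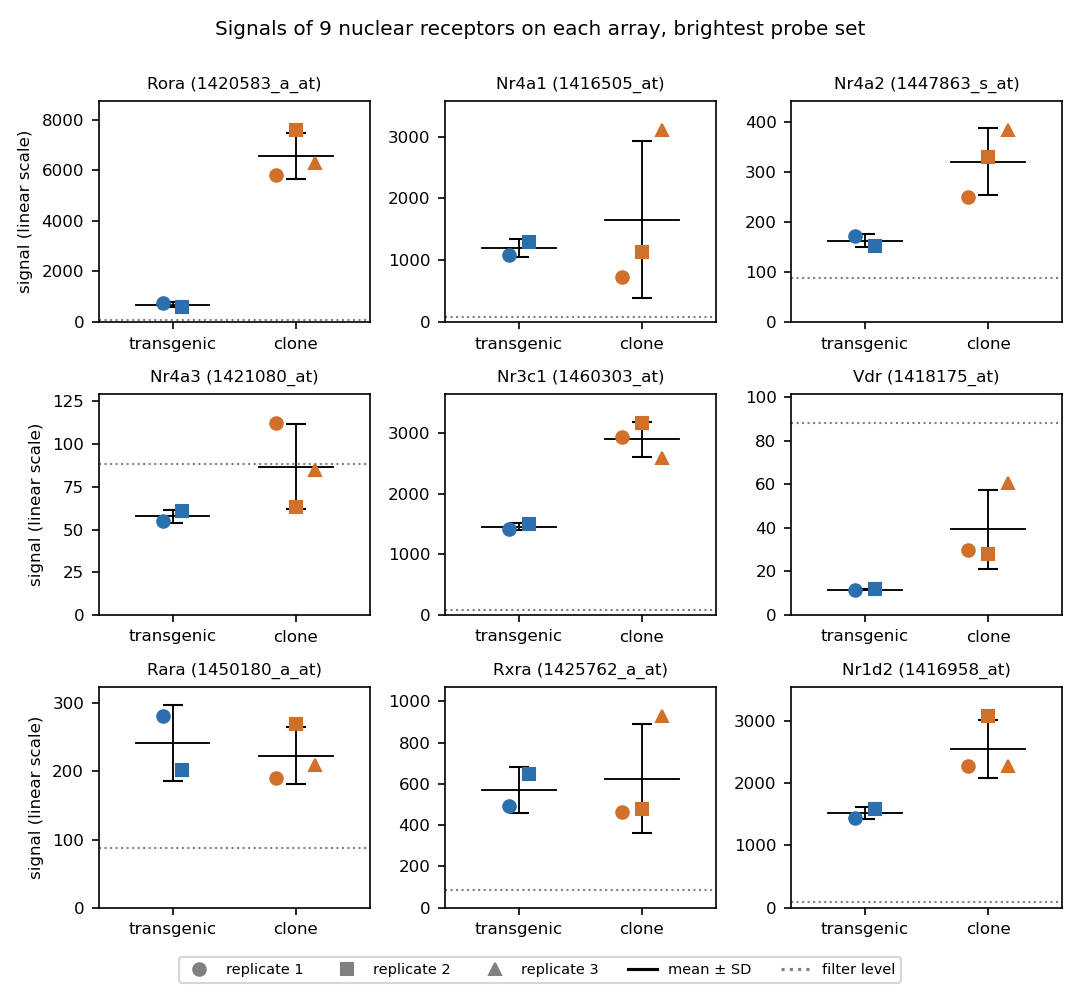
Signal of the brightest probe set of each of the 9 receptor genes (y axis, linear scale, from 0) on 2 transgenic and 3 clone arrays, with group means ± SD as black lines and the filter level of 88.2 dotted. Rora, Nr3c1, Nr4a2 and Nr1d2 have every clone array above both transgenic arrays, while for Nr4a1 and Rxra the third clone array stands above the rest.

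Rora encodes ROR alpha, an activator in the clock loop and a regulator of type 17 and innate lymphoid cells. Its brightest probe set, 1420583_a_at, gave signals of 5812, 7586 and 6281.5 on the clone arrays and 759 and 614 on the transgenic arrays. Every clone array lay far above both transgenic arrays. The means of 6560 ± 919 (SD, n = 3) and 687 ± 103 (SD, n = 2) stood at a ratio of 9.55, with a difference of 3.22 (interval 2.90 to 3.53; adjusted p = 1.02e-06, limma). In bulk RNA such as this, more cells with a transcript and more transcript per cell cannot be told apart.

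Rora was covered by 9 probe sets, and the 8 that passed the filter were all called higher in a fit over all 27022 probe sets, of which 19.8% were called higher, 22.1% lower and 41.9% in all. Their differences were unequal, from 1.14 to 3.22 with a median of 2.59. Probe sets 1424034_at (3.14), 1436325_at (3.07) and 1436326_at (2.69) had intervals that overlapped that of the brightest one, 2.90 to 3.54. Probe sets 1455165_at (2.50), 1441085_at (1.46), 1458129_at (1.28) and 1424035_at (1.14) had intervals below it. Of these, 1441085_at passed the filter only through its clone arrays, at 130 to 189 against 53.6 and 32.9 on transgenic arrays. Its call is therefore not separate support. The ninth, 1458145_at, was dim on all arrays, at 12.2 to 21.9. Averaging all 9 probe sets gave a difference of 2.03 (adjusted p = 1.51e-05).

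**Figure D2:**
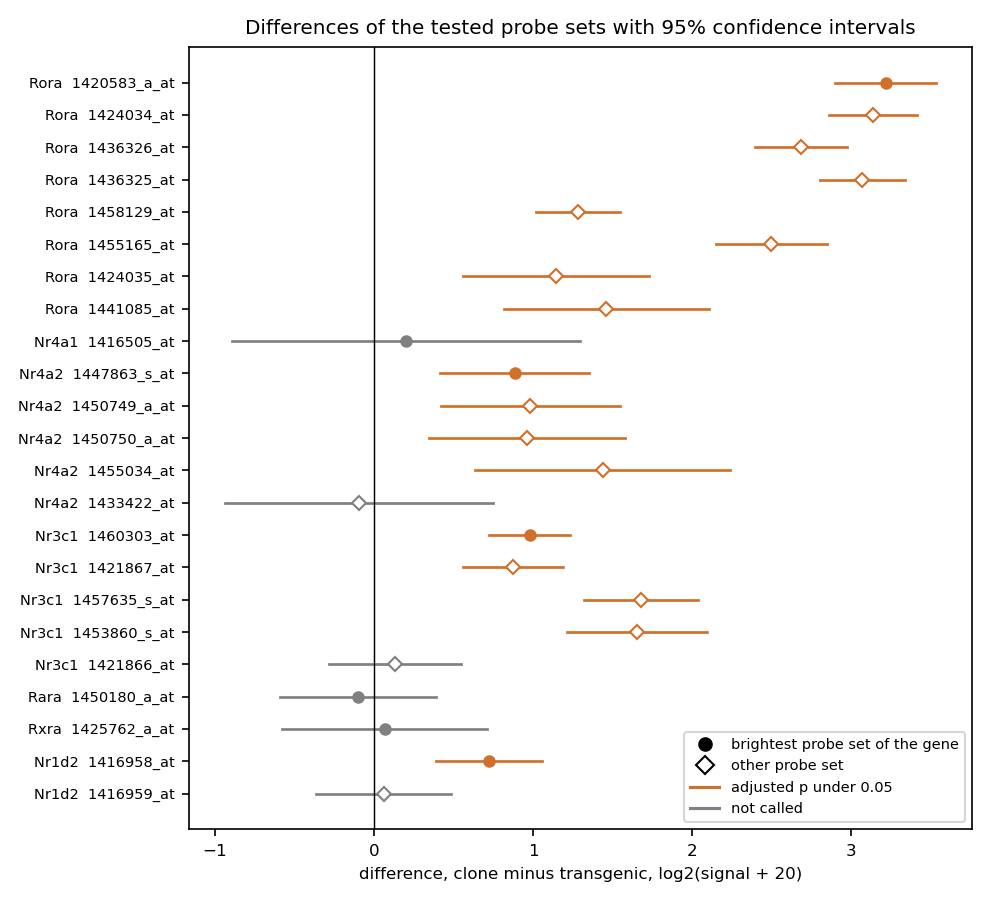
Difference between clone and transgenic arrays (x axis, log2(signal + 20) scale) with its 95% confidence interval for the 23 tested probe sets of 7 receptor genes, with filled circles for the brightest probe set of a gene and orange for an adjusted p under 0.05. All 8 Rora probe sets lie right of 0, at 1.14 to 3.22, and 4 of 5 each for Nr4a2 and Nr3c1 are called.

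Nr1d2 encodes REV-ERB beta, a repressor that competes with ROR receptors for their element. Probe set 1416958_at gave 2277, 3082 and 2273 on clone and 1449 and 1587 on transgenic arrays. The second clone array was the highest and all 3 exceeded both transgenic arrays. The difference was 0.72 (interval 0.39 to 1.05; adjusted p = 0.00390, limma). The second probe set, 1416959_at, was dimmer, at 166 to 203 over the 5 arrays, and was not called (0.06, interval -0.36 to 0.49), and the mean over both gave 0.39 (adjusted p = 0.0455).

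The 250 bases before the start of Nr1d2 hold 1 copy of AGGTCA, the core letters that ROR, REV-ERB and most other nuclear receptors recognise. They are shown because Nr1d2 was called together with Rora, with the core in capitals (RefSeq, GRCm38.p6, chr14:18239107-18239356, minus strand, 5′ to 3′).
Nr1d2: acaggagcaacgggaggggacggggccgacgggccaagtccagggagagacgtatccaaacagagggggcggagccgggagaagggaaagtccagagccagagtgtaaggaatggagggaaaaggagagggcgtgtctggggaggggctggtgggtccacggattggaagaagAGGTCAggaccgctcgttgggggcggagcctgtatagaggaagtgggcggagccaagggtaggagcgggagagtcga
AGGTCA was searched on both strands in the 250 bases before each start and was found in 14.0% of 32851 RefSeq promoters. It was not among the letters of the Rora window. Windows of 8 of the 9 genes were searched, and that of Nr3c1 was not. Of the other members searched, 1 of 2 listed starts of Rxra held 2 copies. Neither the Nr1d2 nor the Rora window held CACGTG, the E-box bound by the CLOCK and BMAL1 proteins, which 6.02% of promoters held.

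The partner loop of these receptors was followed through 17 tested clock genes, of which 9 were higher in clone, 0 were lower and 8 were not called, with a median difference of 0.43 against -0.01 over all genes. The share called higher was 52.9%, against 22.0% of all genes. Nr1d1, encoding the sister receptor REV-ERB alpha, gave 545, 843 and 531.5 on clone against 46.0 and 92.7 on transgenic arrays. The clone arrays thus exceeded the transgenic ones by a wide margin, with a difference of 2.90 (interval 2.26 to 3.55; adjusted p = 8.74e-05). The period gene Per1, a repressor of the loop, was higher by 1.41 (1372.5, 1947 and 1767 against 603 and 634). Csnk1e, a kinase that marks period proteins for breakdown, was higher by 1.19, and Nfil3, a repressor of output genes, by 1.16. Named after their values were seen, Dbp (1.13), Cry1 (1.11), Bhlhe40 (1.03), Arntl, which encodes BMAL1 (0.54), and Clock (0.43) were also higher. Arntl was not called without probe sets of the _a_at, _s_at and _x_at types (0.15), and Clock was not called without the first or second transgenic or the first or second clone array. The 8 genes not called included Per2 (-0.20), Per3 (-0.32) and Cry2 (-0.49). The second clone array was the highest of the clone arrays in 11 of the 17 genes, against 35.6% of all genes, and without it 1 clock gene was called lower.

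**Figure D3:**
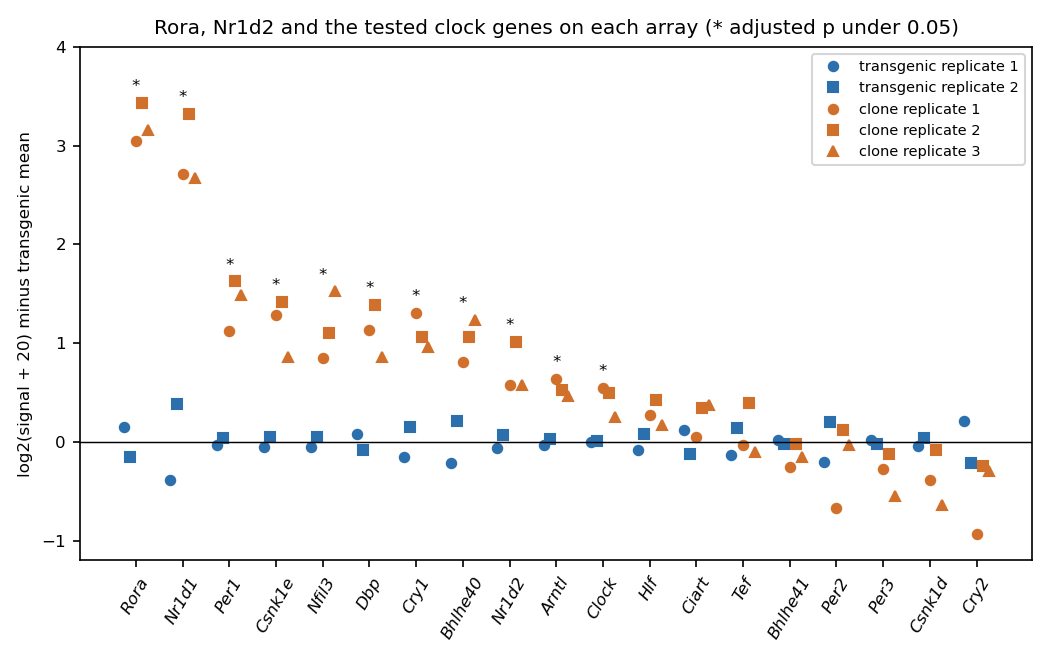
Values of Rora, Nr1d2 and 17 tested clock genes on each array (y axis, log2(signal + 20) minus the mean of the 2 transgenic arrays), ordered by difference, with an asterisk at an adjusted p under 0.05. Nr1d1 follows Rora at 2.90, and the genes right of Clock (0.43) are not called.

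Type 17 genes, which ROR receptors regulate in other T cells, were mostly not called. Of 7 tested, 2 were higher, Irf4 (2.21) and Maf (1.92), both transcription factor genes, and Stat3 was lower (-0.46). Their further probe sets had the same sign but other sizes, with 1.3 as the lowest for Irf4 and 1.17 for Maf, and -1.03 as the farthest from 0 for Stat3. The cytokine gene Il17a, named after its values were seen, gave 135 to 167 on clone and 162 and 246 on transgenic arrays, with overlapping groups (-0.37, adjusted p = 0.236).

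The NR4A genes differed in their calls, though no test compared them with each other. Nr4a1, encoding NUR77, gave 726, 1132 and 3106 on the clone arrays and 1092.5 and 1295 on the transgenic arrays. The third clone array was far above the other arrays and the first clone array below them, so that the groups overlapped. The difference was 0.20 (interval -0.91 to 1.31; adjusted p = 0.768), and without the third clone array it was -0.38 (adjusted p = 0.188). The interval is too wide to tell a rise from a fall.

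Nr4a2, encoding NURR1, gave 250.1, 329 and 384 on clone and 171.5 and 153 on transgenic arrays with its brightest probe set, 1447863_s_at. The clone arrays were all higher, the third again the highest. The difference was 0.89 (interval 0.40 to 1.37; adjusted p = 0.00912). Leaving out the first transgenic array (0.76, adjusted p = 0.106) or the second (0.81, adjusted p = 0.0618) removed the call. Of the 5 tested probe sets 4 were called higher, at 0.89 to 1.44, and 1433422_at was not (-0.09), with clone signals of 60.6, 179 and 98.7 against 125 and 100.4. The 1.44 is that of 1455034_at, which passed the filter only through its clone arrays, at 104 to 261.5 against 54.5 and 42.1. Its call is therefore not separate support. Nr4a3, encoding NOR1, was dim: 112, 63.0 and 85.1 on clone against 55.2 and 60.6 on transgenic arrays with its brightest of 3 probe sets. All clone arrays exceeded both transgenic arrays, the second by little, the other 2 probe sets overlapped, and without the filter the difference of 0.43 was not called (adjusted p = 0.321).

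The starts of the 3 NR4A genes share a feature that the choice of genes did not use. Each holds 4 copies of TGACG, read on either strand, the core of the element bound by CREB, a factor activated by calcium and cyclic AMP signals. The 250 bases before each start are shown with these copies in capitals (RefSeq, GRCm38.p6, 5′ to 3′): Nr4a1 at chr15:101266596-101266845, plus strand, Nr4a2 at chr2:57124004-57124253, minus strand, and Nr4a3 at chr4:48045055-48045304, plus strand.
Nr4a1: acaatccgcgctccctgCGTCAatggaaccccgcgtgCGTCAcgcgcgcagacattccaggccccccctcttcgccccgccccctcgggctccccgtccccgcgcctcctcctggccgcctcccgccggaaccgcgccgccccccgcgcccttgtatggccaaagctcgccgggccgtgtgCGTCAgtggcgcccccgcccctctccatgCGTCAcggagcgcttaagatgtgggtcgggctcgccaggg
Nr4a2: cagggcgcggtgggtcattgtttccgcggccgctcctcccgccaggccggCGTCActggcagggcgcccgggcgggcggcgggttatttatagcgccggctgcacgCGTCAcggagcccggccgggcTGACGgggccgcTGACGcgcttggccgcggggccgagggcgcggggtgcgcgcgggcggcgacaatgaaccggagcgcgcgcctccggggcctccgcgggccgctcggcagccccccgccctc
Nr4a3: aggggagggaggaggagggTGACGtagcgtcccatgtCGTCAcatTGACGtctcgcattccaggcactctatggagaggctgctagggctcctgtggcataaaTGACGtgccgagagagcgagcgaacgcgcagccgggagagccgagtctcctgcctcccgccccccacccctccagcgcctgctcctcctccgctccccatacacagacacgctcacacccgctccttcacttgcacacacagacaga
At least 1 copy was found in 17.8% of the 32851 promoters and 4 or more in 0.137%, 45 in all, a count that was chosen after the NR4A windows were read. Among the other members searched, which leave out Nr3c1, only 1 of the 4 listed starts of Rara held a copy. Nr4a1, Nr4a2 and Nr4a3 thus carry similar counts of the element, while 1 was not called, 1 was called higher and 1 was too dim to test.

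Other genes induced by T cell receptor signalling, 21 tested, went both ways: 6 were higher in clone, 8 lower and 7 not called, with a median difference of -0.05. Together 66.7% were called, against 43.8% of all genes. Nab2, a corepressor of EGR factors, was lower (21.3, 15.8 and 10.3 on clone against 505 and 469; -3.83, adjusted p = 1.86e-05), and so was the survival gene Ier3 (-3.63). Nab2 lay below the filter level on clone arrays and passed it only through the transgenic arrays, so its call is not separate support. Its size is inexact, at -4.91 to -3.03 among the alternatives. Dusp4, encoding a phosphatase that restrains ERK, was higher by 2.44. Egr1, named after its values were seen like the next gene, was bright and overlapped (-0.04, interval -0.25 to 0.17). Egr3 gave 271, 233.5 and 612 on clone against 155 and 170.4 on transgenic arrays, highest on the third clone array like Nr4a1, and missed the threshold (0.98, adjusted p = 0.0540). It was called higher in 5 of 16 alternatives, among them those without the second or without the third clone array. The third clone array was the highest clone array in 7 of the 21 genes, close to the 33.5% of all genes.

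Genes reported with NR4A and TOX factors in persistently stimulated CD8 T cells were called for 10 of 13, 5 in each direction, with a median difference of -0.48. Over all genes 43.8% were called, against 76.9% of these. Eomes, a T-box factor gene, was lower (-4.14; 62.8 to 90.3 on clone against 1516 and 1700.2), as were the inhibitory receptor genes Lag3 (-3.60) and Cd244a (-3.16). Eomes and Cd244a are also 2 of the 3 NK cell markers that were lower in clone. Eomes, Lag3 and Cd244a had clone means of 72.8, 39.3 and 14.6, below the filter level. They passed it only through the transgenic arrays, so their calls are not separate support. Tox itself gave 472, 598 and 187 on clone against 103 and 149, a difference of 1.46 (adjusted p = 0.0209). Tox was no longer called when the first transgenic or the first clone array was left out, when its probe sets were averaged, without the filter or without the intensity trend. The higher genes numbered 3 without the first transgenic array, and the lower ones 3 without the second.

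Nr3c1, the glucocorticoid receptor gene, was about 2-fold higher in clone. Probe set 1460303_at gave 2943, 3174 and 2600.2 on clone and 1419 and 1504 on transgenic arrays, with no overlap and little spread in either group. The ratio of means was 1.99 and the difference 0.98 (interval 0.73 to 1.23; adjusted p = 0.000177, limma). Of 5 tested probe sets 4 were called, with 1421867_at at 0.87, 1453860_s_at at 1.65 and 1457635_s_at at 1.68. The last 2 gave intervals of 1.21 to 2.09 and 1.32 to 2.03, of which the second lay above that of 1460303_at, 0.72 to 1.23. Probe set 1421866_at was not called (0.13, interval -0.28 to 0.54), with 458 to 699 on clone against 482 and 551, and 1431378_at was dim, at 45.8 to 79.6.

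Genes that glucocorticoids induce in lymphocytes were called for 18 of 19, 6 higher and 12 lower in clone, with a median difference of -0.69. As shares, 94.7% were called, against 43.8% of all genes, 31.6% higher, against 22.0%, and 63.2% lower, against 21.7%. The metallothionein genes Mt1 (15.0, 13.3 and 71.2 against 1849 and 1646; -5.22, adjusted p = 2.79e-05; -2.21 with its second probe set) and Mt2 (-3.20) were lower, together with the kinase gene Sgk1 (203, 296 and 144.5 against 5045 and 5378.5; -4.53). Mt1 had a clone mean of 33.2, below the filter level, and passed only through the transgenic arrays, so its call is not separate support. Anxa1, encoding the anti-inflammatory protein annexin A1, was higher (10963, 12253 and 12560.3 against 809.8 and 1114; 3.62, adjusted p = 5.31e-07). Fkbp5 and Tsc22d3, 2 widely used reporters of hormone action and named after their values were seen, were lower by -0.72 and -0.45. Both lost their call without the first transgenic array, Fkbp5 also without the second and Tsc22d3 also when its probe sets, at -0.45 to 0.23, were averaged or those with an _a_at, _s_at or _x_at suffix were left out. Without the first transgenic array 7 genes were called lower in place of 12. The labels name no added hormone, and several of these genes also answer to other signals.

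Chaperones that hold steroid receptors were called for 8 of 13 tested, 7 higher and 1 lower, with a median of 0.39. Called genes made up 61.5%, against 43.8% of all genes. Stip1, which links HSP70 to HSP90, was higher by 0.86 (1925, 1504 and 1793 against 880.0 and 1017), and Nudc by 0.83. Bag1, a nucleotide exchange factor of HSP70, was higher by 0.72. Fkbp4, the co-chaperone that carries the hormone-bound receptor, was higher by 0.80, but another of its probe sets differed by -1.0 and averaging its probe sets removed the call. Without probe sets of the _a_at, _s_at and _x_at types the sign of Fkbp4 turned, at -1.0, and it was no longer called higher. The 1 lower gene was Fkbp5, which restrains hormone binding, and it was not called without either transgenic array.

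Rara and Rxra, a receptor for retinoic acid and its partner, were not called. Rara gave 190.4, 269.7 and 209 on clone and 281 and 202 on transgenic arrays, fully overlapping, with a difference of -0.10 (interval -0.61 to 0.40; adjusted p = 0.738). Rxra gave 464.5, 480.4 and 930.2 on clone and 491 and 649.6 on transgenic arrays, with the third clone array highest, as for Nr4a1. Its difference was 0.07 (interval -0.58 to 0.72; adjusted p = 0.872) and -0.25 without the third clone array. The other 2 Rxra probe sets were dim, at 6.1 to 24.2.

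Around these receptors, retinoid genes were called for 8 of 10, 5 higher and 3 lower, with a median of 0.27. Among all genes 43.8% were called, against 80% in this list. Aldh1a3, encoding an enzyme that makes retinoic acid, gave 1202, 822 and 1011 on clone against 9.3 and 24.6 on transgenic arrays. It was below the filter level on transgenic and far above it on clone arrays (4.82, adjusted p = 2.42e-06). Its transgenic signals are too dim for an exact size: the second probe set differed by 1.99, and the alternatives gave 2.90 to 5.95, all called higher. Rdh11, encoding a retinal reductase, was higher by 0.98, though not called without the first clone array. Ccr9, a gut homing receptor gene that retinoic acid induces, was lower (616, 956 and 570.4 against 4993 and 5857; -2.92), with 4 probe sets at -3.30 to -1.31. Tgm2, another induced gene, was lower with its brightest probe set (-1.29), while its 5 probe sets spanned -3.64 to 1.10 and without the first transgenic array it gave 0.18, not called. The higher genes numbered 2 without the first transgenic array and 3 without the second transgenic or the first clone array.

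Vdr was dim in both groups. Its brighter probe set gave 29.7, 27.9 and 60.4 on clone and 11.4 and 11.8 on transgenic arrays, and 1418176_at gave 28.7, 16.1 and 23.2 against 14.7 and 13.8. Clone arrays were higher in both, at signals where the arrays' background is not known, and without the filter the difference of 0.87 was not called (adjusted p = 0.0581). Of 6 tested vitamin D genes 1 was higher, Cyp24a1, the enzyme gene that the receptor induces to degrade its own ligand (151, 132 and 118 against 50.9 and 65.7; 0.97, adjusted p = 0.0155), and not called when the first transgenic or the first clone array was left out. The 1 lower gene was Cd14 (-2.77), which is also one of the myeloid markers that were higher on the transgenic arrays.

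Targets of the oxysterol receptors, which pair with RXR, were called for 6 of 10, 4 higher and 2 lower, with a median of 0.24. Called targets were 60%, against 43.8% of all genes. Scd1 (1.49) and Scd2 (0.94), fatty acid desaturase genes, were higher. Mylip, encoding the ligase that degrades the LDL receptor, was lower (168, 58.2 and 227.5 against 1384 and 1608; -3.30), and so was the cholesterol exporter gene Abca1 (-1.18). The weakest probe set of Scd2 gave 0.27 and that of Abca1 -0.63. Without the second transgenic array 2 were called higher.

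**Figure D4:**
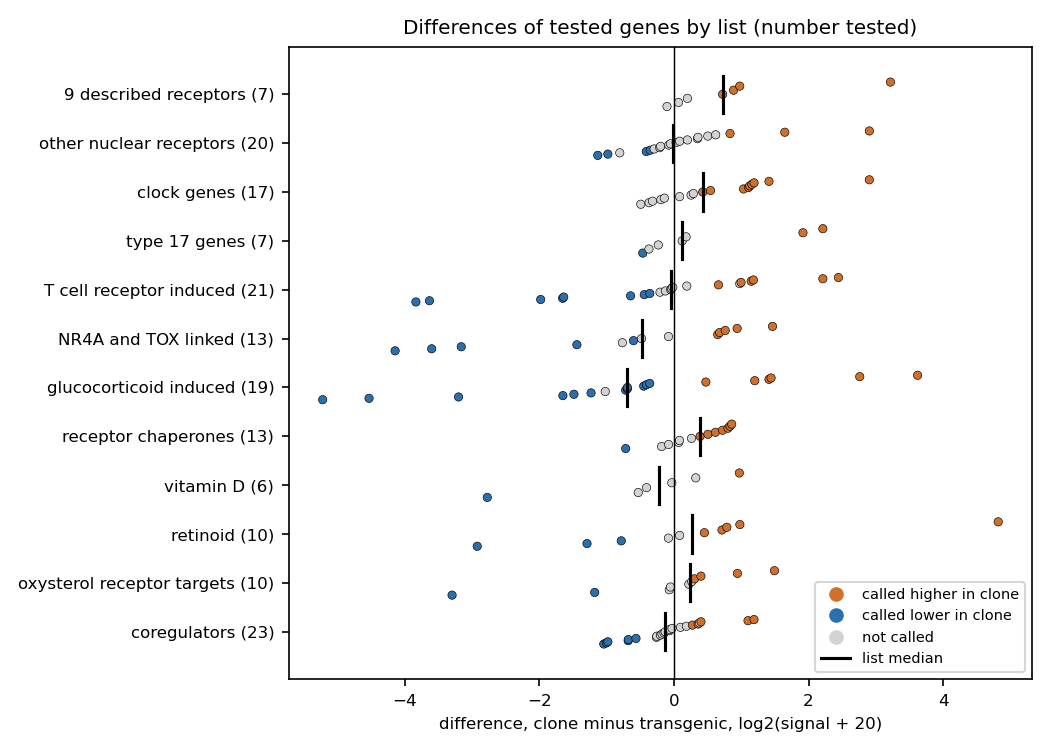
Difference between clone and transgenic arrays (x axis, log2(signal + 20) scale) of every tested gene of the receptor set and of 11 related lists, 1 point a gene, with list medians as black bars. Clock genes hold 9 orange points of 17 and no blue one, while glucocorticoid-induced genes are split into 12 lower and 6 higher.

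In the rest of the nuclear receptor family 20 of 35 genes on the array were tested, and 3 were higher, 4 lower and 13 not called, with a median of -0.01. The share called was 35%, against 43.8% of all genes. Besides Nr1d1, the estrogen receptor gene Esr1 was higher (580.2, 524 and 473 against 153.6 on both transgenic arrays; 1.65, adjusted p = 7.74e-05), with 3 probe sets at 1.27 to 1.65. The orphan receptor genes Nr2c1 (-1.13) and Nr6a1 (-0.98) were lower, Nr2c1 not without the first clone array and Nr6a1 not under 5 of 14 alternatives. The sign of Nr6a1 turned where another probe set became its brightest, with alternatives from -1.17 to 0.96. Named after their values were seen, Ppard was higher by 0.83, and Rxrb, the second RXR gene, was lower by -0.35, a call kept in 11 of 16 alternatives. Ppard was not called without the first transgenic array. Without the second transgenic array 1 gene was called lower.

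Coregulators, which receptors recruit to act on chromatin, were called for 11 of 23, 5 higher and 6 lower, with a median of -0.13. These shares of 47.8% called, 21.7% higher and 26.1% lower were near the 43.8%, 22.0% and 21.7% of all genes. Nrip1, a corepressor gene, was higher by 1.19 (4764, 5422 and 5668 against 2262 and 2336), with 6 probe sets at -0.10 to 1.19 and 0.69 as the lowest value among the alternatives, and the arginine methyltransferase gene Prmt1 by 1.10. Tbl1xr1, of the NCOR corepressor complex, was lower by -1.04, and the histone methyltransferase gene Nsd1 by -1.0, with 4 probe sets at -1.59 to 0.49. Without the second transgenic array 2 were called higher.

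The genes most like each called receptor were taken by the smallest root mean square distance between log2 values, centred on their mean, over the 5 arrays. For Rora these were Nebl (distance 0.09, difference 3.15), Shox2 (0.15, 3.17) and Atf5 (0.15, 3.13). For Nr3c1 they were Stab2 (distance 0.04, difference 1.03), Rest (0.04, 0.97) and Flot1 (0.05, 0.90). For Nr4a2 they were H2aw (distance 0.06, difference 0.84), Selenoh (0.06, 0.96) and 1700001G11Rik (0.06, 0.83), and for Nr1d2 5031439G07Rik (0.03, 0.73), AU041133 (0.04, 0.79) and Cabyr (0.055, 0.66). With 5 arrays in 2 groups such likeness mainly restates the size of the group difference.

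Among the clone arrays the 7 tested receptors did not share an order. The second clone array was the highest for Rora, Nr3c1, Nr1d2 and Rara, and the third for Nr4a1, Nr4a2 and Rxra.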

How the data were processed

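Total RNA (8 µg) of each of 5 cultures was labelled with biotin and hybridised to Affymetrix mouse arrays, per the labels' protocols. The deposited values are linear intensity, 1 signal per probe set, made with GCOS per the submitters' processing notes. The 2% trimmed mean is 500 on every array, so no further normalization was applied. The table holds no detection calls. Precision is limited by having 5 arrays, with a standard error of 0.16 for the median gene. In no pair of arrays were more than 159 of 45101 values identical.

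Of these probe sets 64 were controls and left out, 34945 had 1 gene symbol in the platform annotation, 932 several and 9160 none, and gene identifiers changed 0 symbols (RefSeq, GRCm38.p6). Values were taken as log2(signal + 20), which understates differences of dim genes. Probe sets at a mean signal of at least the 40th percentile (88.2) were kept, the brightest stood for its gene, and clone was compared with transgenic in limma 3.58.1 (R 4.3.3; lmFit, eBayes with trend, two-sided, Benjamini-Hochberg). A second fit used every probe set. The fit was tested on simulated data.

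Members and lists were chosen with earlier results of these data known. Of 285 listed genes 30 had no probe set named and were not used here. Named are all members, up to 4 called genes per list with the largest differences and no overlap of groups (or 2 bright uncalled ones), and the 3 nearest genes of each called member; others are marked, and genes of marker lists are mostly left to counts. Each choice was varied in turn: quantile normalization, a pseudocount of 1 or of 50, signals floored at 50, no filter or the 60th percentile, the mean over probe sets, every probe set, no probe sets with a suffix (_a_at, which read several transcripts of a gene, and _s_at and _x_at, which can read other genes), eBayes without trend or robust, a block for replicate number, and leaving out single arrays. Figures were drawn with matplotlib 3.10.9.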

Additional observations from a re-analysis of the deposited data

How the results depend on the processing

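Rora, Nr3c1 and Nr1d2 stayed called higher in all 16 alternatives that tested them, at 2.03 to 3.37, 0.86 to 1.06 and 0.39 to 0.80, and 4 members were called higher in the analysis as reported. Nr4a2 was called in 14 of 16, and with each array left out its difference ranged from 0.75 to 1.14. Nr4a1, Rara and Rxra were called in none, and their sign changed: Nr4a1 was -0.38 with the replicate block and ranged from -0.38 to 0.65 with arrays left out. Rara was 0.018 under quantile normalization and ranged from -0.32 to 0.12 with arrays left out. Rxra was -0.0051 with the mean over probe sets, -0.25 with the replicate block and from -0.25 to 0.26 with arrays left out. The cause was not tested, apart from the block, in which the third clone array has no partner and drops out of the contrast. Rara could not be tested without the _a_at, _s_at and _x_at types or at the 60th percentile, nor Rxra without those types. Where a transgenic array was left out, the lone one was assumed to vary like the others.

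Over all genes, testing every probe set gave 5358 higher and 5971 lower against 2742 and 2706 genes, with more features tested, and leaving arrays out gave 1697 to 2795 lower. Counts by list and direction stayed within 1.5 times in 321 of 352 cases. Those moved by settings other than a left-out array were lower counts of other nuclear receptors (2 against 4 at the 60th percentile, with the mean over probe sets and with the replicate block), clock genes (1 against 0 under quantile normalization and with the mean over probe sets), chaperones (2 against 1 under quantile normalization), genes linked to NR4A and TOX (3 against 5 at the 60th percentile) and vitamin D genes (0 at the 60th percentile and 2 with the replicate block against 1). Higher counts moved for type 17 genes (1 against 2 at the 60th percentile), genes linked to NR4A and TOX (3 against 5 with the mean over probe sets), vitamin D genes (0 against 1 at the 60th percentile and with the mean over probe sets) and coregulators (3 against 5 with eBayes without trend and with the replicate block). The labels describe separate vials and separate mice and do not say that the numbers pair them, so the main fit used no pairs. Same-numbered arrays deviated from their group means with correlations of -0.03 and -0.08 over genes. With 2 transgenic arrays their deviations mirror each other, so these are not separate checks and cannot decide on pairing. With the block 4633 genes were called against 5448.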
